A study of Caenorhabditis elegans with 6 samples.

Results

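The snoRNA genes of Caenorhabditis elegans were examined in peak lists of RNA co-precipitated with MBL-1, the muscleblind protein of the worm. The members are all 346 genes with the biotype snoRNA in the RefSeq gene annotation of the WBcel235 assembly, among 31563 annotated genes (piRNA genes left out). A member counted as found in a list when the summit of a peak, the position with the most tags, lay inside the gene. This held for 40 of the 346 genes in at least 1 list, at 99 of the 459 summits. The study sampled whole L4 larvae of the genotype mbl-1c(syb5299), called a mutant in the sample titles and 3xFLAG::MBL-1 in the design text, grown at 20 °C on OP50 bacteria. Its 6 samples are 3 of total RNA taken before precipitation (RNA input) and 3 of the RNA that an anti-FLAG antibody brought down (IP), all from tagged animals. Each of the 3 lists, called lists 1, 2 and 3, sets 1 IP against the input of the same number. An IP from untagged animals is not among the samples used here, so RNA held by the beads or the antibody cannot be told apart from RNA held by MBL-1.

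Small nucleolar RNAs are stable non-coding RNAs of the nucleolus and the Cajal bodies. Those of the box C/D class guide ribose methylation with the methyltransferase fibrillarin, and those of the box H/ACA class, longer on the whole, guide pseudouridylation with dyskerin. Many are cut from introns of coding host genes after splicing, and others are made from transcription units of their own. Muscleblind proteins bind pre-mRNA and mature RNA and regulate alternative splicing. The annotation used here gives neither the class of a snoRNA nor strand, exons or sequence, so the members are ordered by their place (inside or outside a protein-coding gene) and by their host, and no sequence is shown.

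The libraries were small, with 39033 to 49827 IP tags and 30707 to 38364 input tags left after the authors kept 1 tag per position, a step that limits high values most. Values are given as the number of extended IP tags over a summit, a coverage at 1 position. Tags were extended to 201 to 203 bp, longer than most of these genes, so this number is not free of gene length. How far it depends on length was not tested. Fold enrichments are the authors' own, from their peak caller, which adds 1 to the IP pileup and to the local input before dividing. Solving this for the input gave a level at every summit. It was either the number of input tags over the summit, or the mean over 1000 or 10000 bp around it, or the genome-wide background of 0.184 to 0.228 tags, whichever was highest. A level under 1 thus means that no input tag lay over the summit, and then a ratio has a lower bound alone, computed with 3 input tags per library. Nothing in the labels says that the replicates came from separate cultures, and the spread between lists may be technical. Because the lists hold enriched sites alone, markers of the worm's tissues could not be checked in them.

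A summit lay in a snoRNA gene for 28 of 346 genes in list 1, 38 in list 2 and 33 in list 3. These are 8.09%, 10.98% and 9.54% of the members, beside 0.399%, 0.532% and 0.608% of all annotated genes that hold a summit in the same lists. Over the lists together 40 genes (11.6%) had a summit in at least 1 list, 34 (9.83%) in at least 2 and 25 (7.23%) in all 3. The shares over all annotated genes were 0.786%, 0.469% and 0.285%, a background in which host genes count as well when the summit lies in a snoRNA inside them. Of the 129 snRNA genes, which encode the RNAs of the spliceosome and related particles, 14 (10.9%) had a summit in at least 1 list. No test of these shares was made, and the part of RNA abundance in them was not tested. Whole larvae were sampled, so fewer cells of a type and less RNA per cell cannot be told apart. The other 306 snoRNA genes have no value, because a list gives values at called peaks alone.

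IP tags over the snoRNA summits far outnumbered input tags. In list 1 they came to 618 IP tags, 1.58% of that library, against 40 to 49 input tags. List 2 had 995 IP tags (2.00%) against 42 to 50 input tags, and list 3 had 715 (1.71%) against 20 to 32. The input numbers are ranges because at some summits a wider window set a level of at least 1. Such a level gives only an upper bound on the input tags over the summit. At 54 of the 99 summits no input tag lay over the summit. These sites were listed for being high in the IP, so the contrast describes the called sites and is no independent evidence of enrichment.

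The 8 genes outside any protein-coding gene that were found in all 3 lists had mean levels from 2.39 to 9.29 IP tags per 10000, below the 4 highest nested genes. ZK643.9 (III, 8937767 to 8937897, 131 bp) had 39, 48 and 33 IP tags in lists 1, 2 and 3 and no input tag in any. Set against 3 input tags, the IP was 12.2-, 12.3- and 8.07-fold higher after scaling to library size, with counting error left out. Y23H5B.10 (I, 2514168 to 2514311, 144 bp) had 42, 46 and 33 IP tags, with 0, 2 and 0 input tags. The IP of list 2 stood 17.7-fold above its input (exact 95% counting interval 4.63 to 151). These 2 genes were close in every list and the highest of the genes outside, at 9.17 ± 1.13 and 9.29 ± 1.44 IP tags per 10000 (SD, n = 3).

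Y53F4B.48 (II, 15165894 to 15166028, 135 bp) followed with 27, 39 and 36 IP tags over 2, 0 and 1 input tags. Its normalised level was 7.78 ± 0.844 per 10000 (SD, n = 3). Y75B12B.12 (V, 15190976 to 15191093, 118 bp) had 16, 36 and 31 IP tags over 2 input tags in list 1 and at most 1 in lists 2 and 3. Its level in list 1 lay well under the other two, and the SD of 1.86 per 10000 around a mean of 6.24 (n = 3) is the largest of any snoRNA gene in all 3 lists. K09E9.5 (X, 15619491 to 15619621, 131 bp), the single member on chromosome X with a summit, had 16, 20 and 16 IP tags over 0, 1 and 0 input tags. Once scaled to library size its 3 levels were nearly equal, at 3.98 ± 0.141 per 10000 (SD, n = 3).

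The last 3 genes outside had few tags. Y74C9A.6 (I, 3747 to 3909, 163 bp) had 12, 16 and 15 IP tags over 1, 1 and 0 input tags. F30H5.4 (III, 502804 to 502889) is at 86 bp the shortest snoRNA gene with a summit and had 7, 13 and 14 IP tags over 0, 0 and 1 input tags. K02C4.8 (II, 8075509 to 8075643, 135 bp) had 10, 11 and 10 IP tags over 1, 1 and 0 input tags. Their means of 3.29, 2.58 and 2.39 IP tags per 10000 form the low end, with Poisson intervals that overlap each other in every list.

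**Figure D1:**
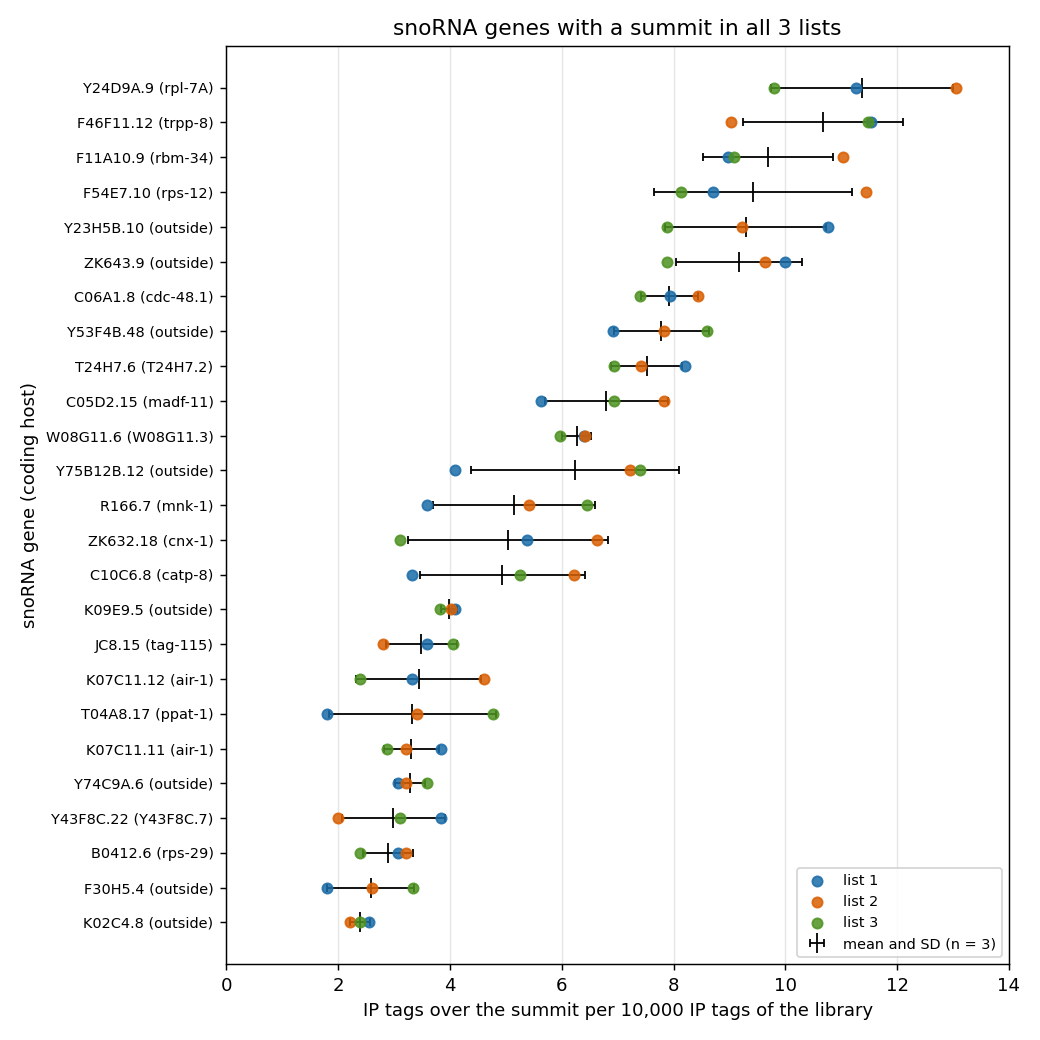
IP tags over the summit per 10000 IP tags of the library (x axis) for the 25 snoRNA genes with a summit in all 3 lists (y axis, with the protein-coding host or "outside" in brackets). Coloured points are the 3 lists and the black mark with its bar is the mean and SD (n = 3). Means run from 2.39 (K02C4.8) to 11.4 (Y24D9A.9). The genes outside lie between 2.39 and 9.29, among the nested ones, and the top 4 genes are nested.

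Inside protein-coding genes, the members hosted by ribosomal protein genes varied widely in IP and input tags. This host group was formed after the values were seen, from symbols that start with rps or rpl, and holds 23 snoRNA genes. Of these, 5 had a summit (21.7%, exact 95% interval 7.46 to 43.7%). In other coding genes 22 of 190 nested members had one (11.6%, 7.40 to 17.0%). The intervals overlap, and no test was made. Y24D9A.9 (IV, 4390088 to 4390308, 221 bp), in rpl-7A of the large ribosomal subunit, had 44, 65 and 41 IP tags over 6, 7 and at most 4 input tags. Its folds of 6.04, 6.38 and 6.17 hardly differed between lists, and its normalised level of 11.4 ± 1.63 per 10000 (SD, n = 3) was the highest of the 25 genes in all 3 lists. F54E7.10 (III, 5679378 to 5679509, 132 bp), in rps-12 of the small subunit, had 34, 57 and 34 IP tags. The wider 1000 bp window set its input level, so that at most 7, 6 and 4 input tags lay over the summit, and the folds were 4.06, 6.04 and 4.77.

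The other members in ribosomal protein genes were weaker or recurred less. B0412.6 and B0412.7 (III, 794399 to 794526 and 794742 to 794867) lie side by side in rps-29. B0412.6 had 12, 16 and 10 IP tags over 1 input tag in each list. B0412.7 had 13 IP tags over 1 input tag in list 2 and 9 over none in list 3, each time as the second summit of the peak that also covers B0412.6, while in list 1 it had no summit. C16A3.11 (III, 6374415 to 6374548), in rps-13, had a summit in list 3 alone, with 27 IP tags over at most 3 input tags.

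Beyond ribosomal protein genes, 2 nested members also had many input tags. F46F11.12 (I, 5611663 to 5611817, 155 bp), in trpp-8, which encodes a subunit of the TRAPP membrane trafficking complex, had 45, 45 and 48 IP tags over 12, 12 and 13 input tags. Its IP stood 3.52-, 2.89- and 2.71-fold above input, with exact 95% counting intervals of 1.83 to 7.31, 1.502 to 5.996 and 1.45 to 5.45. It thus joined the second highest IP level (10.7 ± 1.43 per 10000, SD, n = 3) to the lowest fold of the 25 genes in all 3 lists. Y38F2AR.14 (IV, 2408508 to 2408635, 128 bp), in Y38F2AR.12, resembled it with 36 and 44 IP tags over 10 and 8 input tags in lists 1 and 2, and had no summit in list 3. A local input level of at least 3 was met by 4 of 20 nested summits in list 1, 4 of 25 in list 2 and 4 of 22 in list 3, and by 0 of 8, 0 of 13 and 0 of 11 outside. All of these lay in the ribosomal protein genes rpl-7A, rps-12 and rps-13, in trpp-8 or in Y38F2AR.12.

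Another group of nested members had no input tag over the summit in any list, and their IP tags ranged from 7 to 55. F11A10.9 (IV, 12086709 to 12086828, 120 bp), in rbm-34, which encodes a protein with an RNA-binding motif, had 35, 55 and 38 IP tags. Set against 3 input tags, its IP was 10.95-, 14.1- and 9.30-fold higher, with counting error left out. The level of 9.70 ± 1.16 per 10000 (SD, n = 3) was the third highest. C05D2.15 (III, 5602054 to 5602179, 126 bp), in madf-11, had 22, 39 and 29 IP tags. By the same rule these were 6.88-, 10.01- and 7.09-fold above 3 input tags. List 1 was the lowest for both genes in tag number, but not by more than the Poisson intervals allow.

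ZK632.18 (III, 9815506 to 9815625, 120 bp), in the gene of the endoplasmic reticulum chaperone calnexin, cnx-1, had 21, 33 and 13 IP tags. C10C6.8 (IV, 11474059 to 11474191, 133 bp), in catp-8, which encodes a cation-transporting ATPase, had 13, 31 and 22. The lists were ordered differently in these 2 genes, since list 3 was the lowest in ZK632.18 and list 1 in C10C6.8. K07C11.11 (V, 8222281 to 8222449, 169 bp), in the Aurora kinase gene air-1, had 15, 16 and 12 IP tags, and T04A8.17 (III, 4689634 to 4689771, 138 bp), in ppat-1, had 7, 17 and 20. T04A8.17 had the widest spread of the 25 genes, with 2.67 times more IP tags per 10000 in list 3 than in list 1. Together with ZK643.9, these 6 nested genes make up the 7 of 25 genes in all 3 lists that had no input tag over the summit in any list.

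The remaining nested members in all 3 lists had 0 to 2 input tags. C06A1.8 (II, 10560717 to 10560934, 218 bp), in cdc-48.1, which encodes a AAA ATPase of protein quality control, had 31, 42 and 31 IP tags over 2, 0 and 0 input tags. T24H7.6 (II, 6248717 to 6248855, 139 bp), in T24H7.2, had 32, 37 and 29 over 2, 1 and 1, and W08G11.6 (V, 16370219 to 16370355, 137 bp), in W08G11.3, had 25, 32 and 25 over 1 in each list. These 3 genes were steady between lists, with normalised levels of 7.93 ± 0.510, 7.52 ± 0.639 and 6.27 ± 0.253 per 10000 (SD, n = 3). R166.7 (II, 10545199 to 10545329, 131 bp), in mnk-1, which encodes a MAP kinase-interacting kinase, had 14, 27 and 27 IP tags, over at most 1 input tag in list 1 and none in the others. JC8.15 (IV, 13238932 to 13239077), in tag-115, had 14, 14 and 17 over at most 1 in each list. Y43F8C.22 (V, 19643050 to 19643187), in Y43F8C.7, had 15, 10 and 13 over 0, 1 and 0. The second snoRNA gene in air-1, K07C11.12 (V, 8222779 to 8222973, 195 bp), had 13, 23 and 10 over 0, 1 and 0, a level close to that of its neighbour K07C11.11 in lists 1 and 3.

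**Figure D2:**
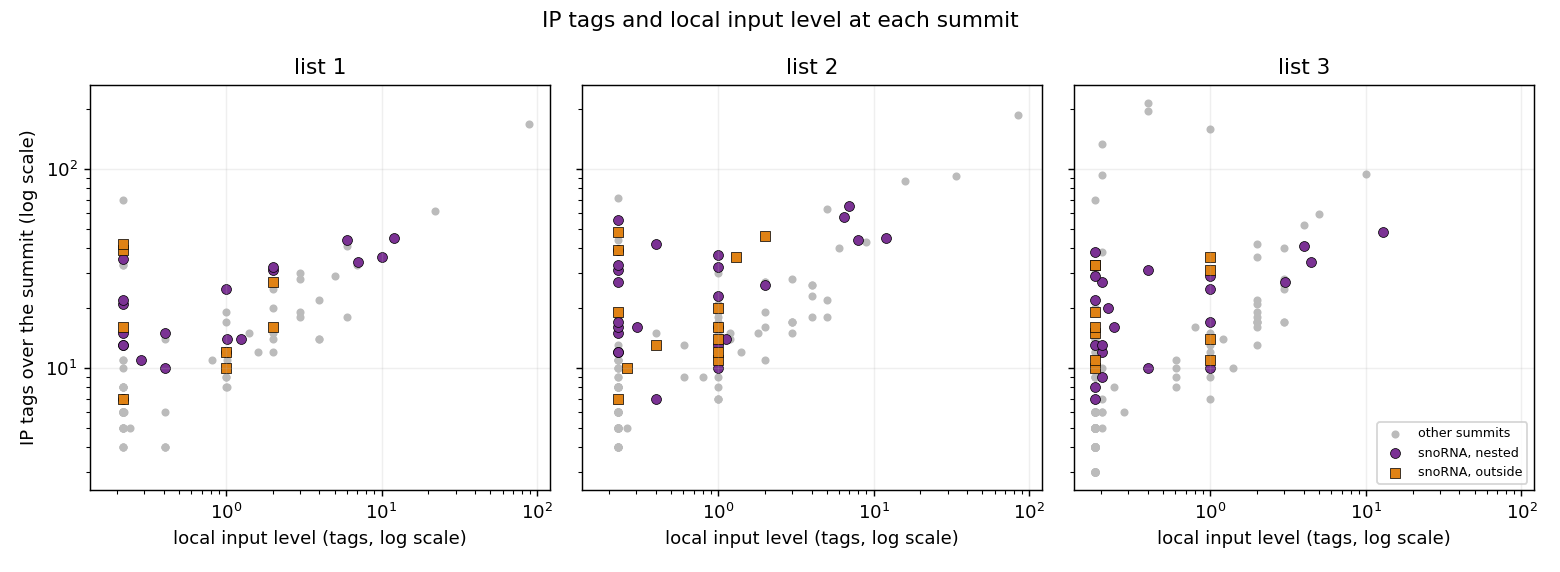
IP tags over the summit (y axis, log scale) against the local input level in tags (x axis, log scale) for every summit of lists 1, 2 and 3. Purple circles are snoRNA genes inside a protein-coding gene, orange squares are snoRNA genes outside one, and grey points are all other summits. The column of points at the left edge of each panel has input at the genome-wide background (0.220, 0.228 and 0.184 tags). The nested summits with a local input level of 3 or more have no counterpart among the genes outside.

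Of the 15 members that missed at least 1 list, 9 were found in 2 lists and 6 in 1 list. All 9 included list 2 (3 with list 1 and 6 with list 3), and none was found in lists 1 and 3 alone. List 2 also had the most IP tags. Outside coding genes, F43A11.8 (V, 11585191 to 11585361) had 19 IP tags in list 2 and 19 in list 3 with no input tag, while T26A8.6 (IV, 8428614 to 8428739) had 14 and 11 and Y67A10A.14 (IV, 14326948 to 14327121) had 12 and 11 in the same lists. Inside coding genes, C06A1.9, the second snoRNA of cdc-48.1, had 26 and 16 IP tags in lists 2 and 3, and Y71F9AM.7, in cogc-3 of the conserved Golgi complex, had 12 and 8. In lists 1 and 2, C14C10.8, in ril-2, had 11 and 16 and Y43F4B.12, in the kinesin gene klp-19, had 10 and 15. Apart from Y38F2AR.14, at 36 and 44 tags, every member in exactly 2 lists had between 8 and 26 IP tags.

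Members found once were mostly at the low end of the called range. In list 2 alone, F01D5.12 (88 bp, in F01D5.10) had 12 IP tags, F59C6.15 (173 bp, outside) 10, C50C3.13 (133 bp, in the core spliceosome gene prp-8) 7 and W01C9.6 (130 bp, outside) 7. In list 3 alone, F48A11.7 (117 bp, in ubxn-3) had 7, beside the 27 of C16A3.11. The medians of IP tags were 8.5 for members in 1 list, 13.5 for those in 2 lists and 25 for those in all 3. A summit with 7 IP tags has an exact 95% Poisson interval of 2.81 to 14.4, so that a missing list says little about such a gene. In 4 members a further annotated non-coding RNA gene covers the same summit (C10C6.8, F01D5.12, Y23H5B.10 and Y53F4B.48), and their tags cannot be given to either entry.

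The host genes were examined for summits outside their snoRNA genes. The 27 nested members with a summit lie in 24 host genes, and 1 of the 24 had a summit outside its snoRNA genes (4.17%), beside 0.831% of all protein-coding genes with a summit anywhere in the gene. A count of 1 does not place the hosts above or below other coding genes. That host was mnk-1, with 6 IP tags and a fold of 5.42 in list 1. In the other 23 hosts, which run from 732 bp (rps-29) to 15644 bp (cogc-3), all listed summits lay in a snoRNA gene. A further peak of the host's own RNA might still lie under the calling threshold. Reads within a snoRNA gene can come from the snoRNA or from unspliced host RNA. Spliced host mRNA can add reads only where the snoRNA gene overlaps a host exon. Without strand and exons, which were not used, these parts of the signal cannot be told apart.

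In 7 of the 24 hosts more than 1 snoRNA gene is annotated. These hosts were chosen for having a member with a summit, so that only the second member of each is informative. It too was found in 3 of the 7 hosts (air-1, cdc-48.1 and rps-29) and was not found in the other 4. Of all nested snoRNA genes 12.7% had a summit. That share includes these members and is not matched to the choice of hosts, so the shares cannot be compared directly. The number is small, the neighbours in rps-29 share a peak, and no test was made. F54E7.10 of rps-12 was in all 3 lists, whereas F54E7.11 (131 bp) in the same host was in none. These 2 genes differ by 1 bp in length. C50C3.13 of prp-8 was in list 2, and C50C3.14 (141 bp) was in none. The companions without a summit in rpl-7A and klp-19, Y24D9A.10 and Y43F4B.11, are 74 and 75 bp long. The part of gene length in these pairs was not tested.

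Levels were compared between lists in the genes with a summit in all 3, a choice that leaves out every member missing from a list. Over the 25 genes in all 3 lists, the coefficient of variation of IP tags per 10000 had a median of 15.2% and ran from 3.54 to 44.9%. The highest list stood above the lowest by a median factor of 1.34 and by at most 2.67. In each of the 25 genes the exact 95% Poisson intervals of the 3 lists overlapped. These intervals are wide at low tag numbers, so their overlap does not show that levels were equal. The highest of the 3 levels was in list 1 for 8 genes, in list 2 for 10 and in list 3 for 7. Spearman's rho of the levels was 0.877 between lists 1 and 2 (28 genes), 0.819 between lists 1 and 3 (25 genes) and 0.880 between lists 2 and 3 (31 genes). These correlations are across genes that were called in both lists, which are not independent replicates and share library preparation, and they are given as a description.

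Nested and outside genes were found at shares that counting error does not separate. Of the 213 nested genes, 27 had a summit in at least 1 list (12.7%, exact Clopper-Pearson 95% interval 8.52 to 17.9%), against 13 of 133 outside (9.77%, 5.31 to 16.1%). All 3 lists were reached by 17 of the 27 nested genes and by 8 of the 13 outside (63.0% and 61.5%). The intervals overlap, cover counting error over genes alone, and no test was made over genes that share a library.

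The groups also overlapped in the strength of their summits. Nested summits had 7 to 45 IP tags in list 1 (median 18), 7 to 65 in list 2 (median 26) and 7 to 48 in list 3 (median 21). Summits outside had 7 to 42, 7 to 48 and 10 to 36 IP tags, with a median of 16 in each list. The ranges overlap in every list, and the medians were higher for nested genes in 3 of 3 lists. The difference of median log2 IP tags was 0.41 ± 0.28 (SD, n = 3; exact sign-flip permutation test over lists, two-sided, p = 0.25), which is the smallest p that 3 lists allow. It was 0.25 with summits at a −log10 q of at least 5 and 0.25 at a fold of at least 4, each with nested genes higher in 2 of 3 lists alone (exact p = 0.5), and 0.27 without replicate 2.

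For fold enrichment the direction varied between lists and settings. The median fold was 9.43 for nested and 7.49 for outside summits in list 1, 9.35 and 7.85 in list 2, and 8.46 and 10.8 in list 3. Nested summits were thus higher in lists 1 and 2 and lower in list 3. The mean difference of median log2 fold was 0.08 ± 0.38 (SD, n = 3; exact sign-flip permutation test over lists, two-sided, p = 0.75). It turned to -0.18 at a −log10 q of at least 5, where the genes outside were higher in 3 of 3 lists (exact p = 0.25, the smallest possible), and to -0.0477 without replicate 1.

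**Figure D3:**
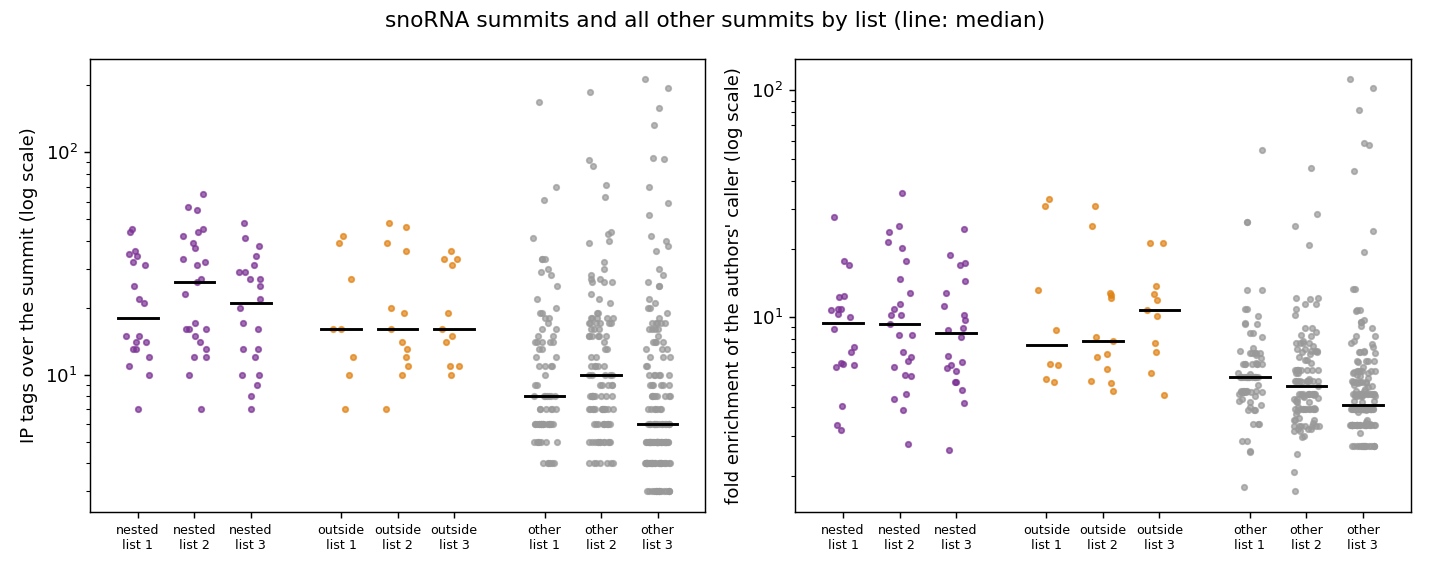
IP tags over each summit (left, log scale) and fold enrichment of the authors' caller (right, log scale) by list for snoRNA genes nested in a protein-coding gene, snoRNA genes outside one, and all other summits. Points are summits and black lines are medians. Nested and outside snoRNA genes overlap in each list, and both have higher medians than the other summits, whose highest points nevertheless lie above every snoRNA summit.

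Genes of middle length were found most often. The members are 54 to 344 bp long, and they were divided into 4 groups of about equal size by length after the values were seen. Among genes of 54 to 96 bp, 2 of 88 had a summit (2.27%, exact 95% interval 0.276 to 7.97%), and among those of 97 to 130 bp 11 of 88 did (12.5%, 6.41 to 21.3%). The share was 23.8% for genes of 131 to 166 bp (20 of 84, 15.2 to 34.3%) and 8.14% for genes of 167 to 344 bp (7 of 86, 3.34 to 16.1%). The group of 131 to 166 bp had the highest share in list 1 (17 of 84 genes), in list 2 (19) and in list 3 (17), and also among nested genes (14 of 52) and among those outside (6 of 32).

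Genes with a summit were 86 to 221 bp long, and the middle 50% of their lengths lay between 127.5 and 144.5 bp, against 94 to 169 bp for genes without one. The medians of 133.5 and 128.5 bp differ by 5 bp. The protocol listed for all samples gives fragmentation to 250 bp, worded for unenriched RNA, and the caller gave tag sizes of 127, 138 and 141 bp for lists 1, 2 and 3. Of the genes with a summit 10 of 40 were shorter than 127 bp (25%), against 145 of 306 of those without (47.4%). At the other tag sizes the order was the opposite and the gap smaller, with 26 of 40 against 189 of 306 genes shorter than 138 bp (65% and 61.8%) and 29 of 40 against 193 of 306 shorter than 141 bp (72.5% and 63.1%). The part of fragment and tag size in this pattern was not tested.

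**Figure D4:**
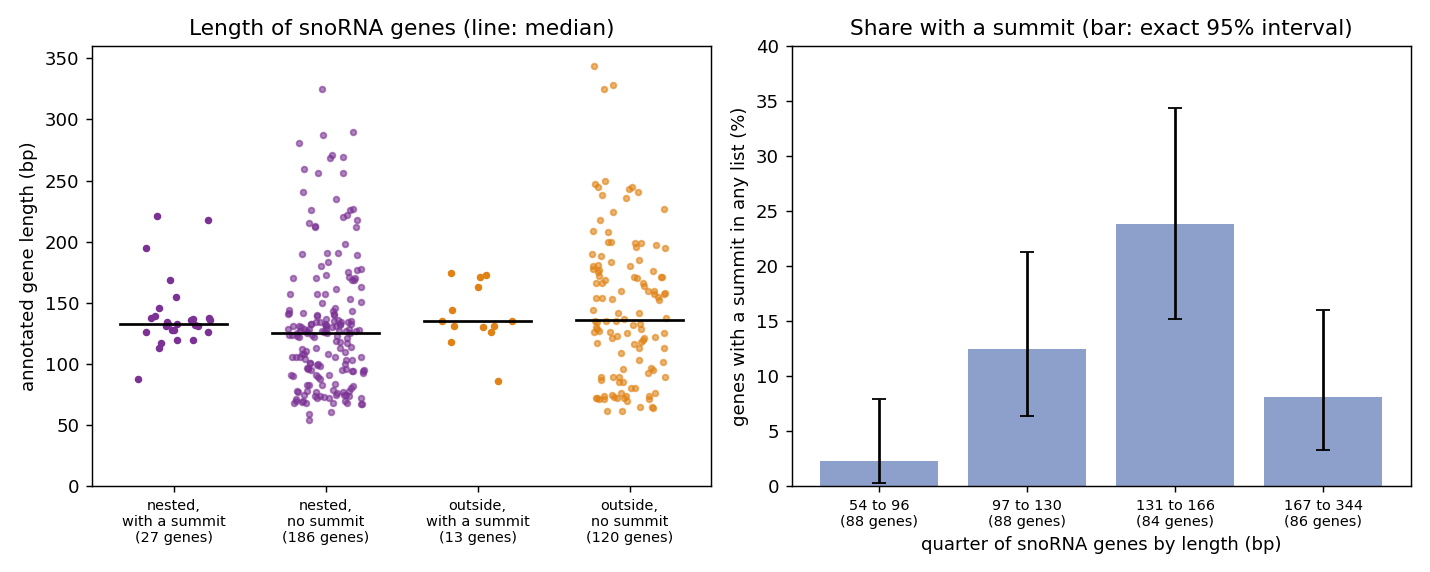
Left, annotated length of snoRNA genes in bp by place and by whether a summit lay in the gene in any list, with 1 point per gene and a line at the median. Right, share of genes with a summit in each of 4 length groups, with exact 95% intervals. The share is highest, at 23.8%, for genes of 131 to 166 bp, and 2.27% for genes of 54 to 96 bp.

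Because a summit had to lie inside the gene, its distance from the middle of the gene was bounded by the gene's length. As a description, this distance had a median of 17.5 bp over the 99 summits and was at most 53.5 bp. In the 25 genes of all 3 lists the summits of one gene lay within a median of 18 bp of each other, at most 57 bp. In Y23H5B.10 all 3 summits fell on the same base. Peaks were 201 to 636 bp wide with a median of 307 bp, and exceeded the gene by a median of 82 bp on the side of lower and 84 bp on the side of higher coordinates. Tags were extended to 201 to 203 bp by the caller, which by itself widens peaks beyond genes as short as these. The widest peaks, of 636 and 542 bp, cover both snoRNA genes of rps-29.

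**Figure D5:**
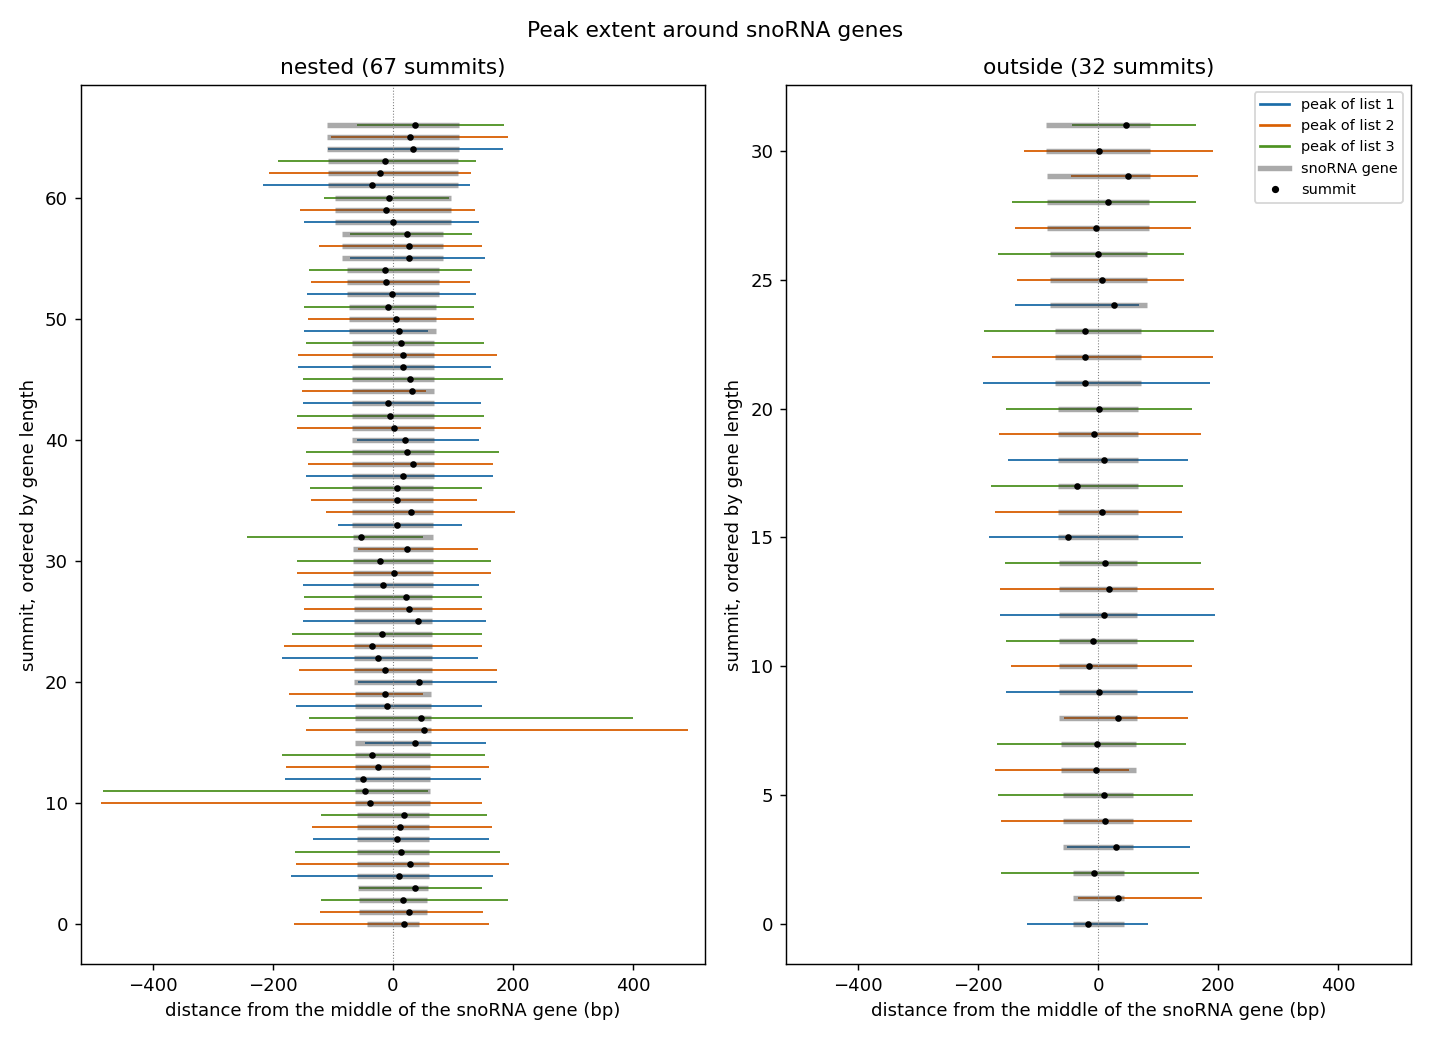
Extent of the peak at each snoRNA summit (coloured lines by list), the snoRNA gene (grey bar) and the summit (black dot), as distance in bp from the middle of the gene, ordered by gene length, for 67 nested summits (left) and 32 outside (right). Most peaks extend about evenly to both sides, and the 4 longest lines are the peaks over B0412.6 and B0412.7, which share a peak in lists 2 and 3.

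Compared with the rest of the lists, snoRNA summits had higher medians of coverage and fold in each list. The median number of IP tags was 16, 19.5 and 19 at snoRNA summits in lists 1, 2 and 3, against 8, 10 and 6 at all other summits. The median folds were 8.80, 8.34 and 8.91, against 5.44, 4.95 and 4.08. Both measures were higher at snoRNA summits in 3 of 3 lists, by 1.21 ± 0.39 for log2 IP tags and 0.86 ± 0.23 for log2 fold (SD, n = 3; exact sign-flip permutation test over lists, two-sided, p = 0.25 for each, the smallest possible). The differences shrank to 0.37 and 0.46 among summits with a −log10 q of at least 5, the tag difference to 0.79 at a fold of at least 4 and 0.81 at a q of at most 0.05, and the fold difference to 0.51 where input was above the background. No input tag lay over 14 of 28, 19 of 38 and 21 of 33 snoRNA summits, against 53 of 81, 72 of 113 and 136 of 166 other summits. The shares of 50%, 50% and 63.6% stand beside 65.4%, 63.7% and 81.9%, a difference that was not tested. The exact 95% intervals overlap in each list, for example at 30.6 to 69.4% and 54.0 to 75.7% in list 1, and the part of the lower IP tags of other summits in these shares was not tested.

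The snRNA genes had a coverage close to that of the snoRNA genes. Their median IP tags were 17.5, 20 and 19 in lists 1, 2 and 3, over 8, 12 and 12 summits, but their median folds of 5.92, 7.26 and 6.21 were below those of snoRNA summits, and no input tag lay over 2, 2 and 3 of these summits. By IP tags, snoRNA summits took 6, 5 and 1 of the 10 highest places in lists 1, 2 and 3. By fold they took 5, 6 and 3. In list 3 other sites with up to 213 IP tags filled most of these places.

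The proteins of the snoRNA particles were looked for as messages of the same pathway. Of 8 genes, fib-1 (fibrillarin), nol-56, nol-58 and snu-13 of the box C/D particle and dkc-1 (dyskerin), garr-1, Y48A6B.3 and nola-3 of the box H/ACA particle, 0 held a summit in any list, beside 0.786% of all annotated genes in at least 1 list. At that background, a count of 0 among 8 genes is not a result about the pathway. The mbl-1 gene of the tagged protein held 6, 8 and 8 summits, of at most 14, 17 and 20 IP tags. At the summits with the most tags the mbl-1 folds were 7.07, 11.5 and 13.2. Several snoRNA genes exceeded the mbl-1 tag numbers in every list, among them F11A10.9, ZK643.9 and Y23H5B.10. F46F11.12 did so as well, with lower folds of 3.33, 2.74 and 2.59.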

How the data were processed

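The peak lists of 3 anti-FLAG IPs, each called against the RNA input of the same number, were used. The genome build was WBcel235, and BWA, DiffBind and MACS2 are listed, per the submitters' processing notes. Peaks were called with MACS2 2.1.0.20150420, per the file headers, at a threshold of 0.001 on the p-value, with 1 tag kept per position, which removed 67.4 to 71.9% of tags, tags extended to 201 to 203 bp, and an effective genome of 33769074 bp. The deposited signal is the pileup at the summit, scaled to the smaller library, and the deposited ratio is the fold of IP over local input. The deposited −log10 p and −log10 q are the caller's Poisson values. A q column is present, although the headers report no q calculation.

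Pileups were turned into whole IP tags (all within 0.02) and input levels were recovered from the fold with a tolerance of 0.004. Decoding and gene assignment were tested on simulated lists. Genes came from the RefSeq table of WBcel235, matched to the files by the name of the build. Nested means wholly inside a protein-coding gene. Lists were the units of the exact sign-flip tests. All members in at least 1 list are named, as are the hosts of nested ones. The members, lists of genes and tests were chosen with earlier results of these data known. Intervals cover counting error only. Planned searches for box and muscleblind motifs needed sequence, which was not used here. Computations ran in Python 3.11.15 with pandas 2.3.3, numpy 2.4.6 and scipy 1.17.1, and plots were drawn with matplotlib 3.10.9.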

Additional observations from a re-analysis of the deposited data

How the results depend on the processing

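The number of snoRNA genes with a summit in at least 1 list lay between 35 and 43 under stricter thresholds and other rules of assignment, and between 36 and 40 when each replicate was left out. The number in at least 2 lists was 26 to 35, and 25 to 31 when it was counted over the 2 lists left. In all 3 lists 17 genes remained at a −log10 q of at least 5, and 24 or 25 under the other settings. The shares of nested and of outside genes with a summit stayed within their exact intervals under every alternative, from 11.27 to 13.6% and from 8.27 to 10.7%. The difference of median log2 fold between nested and outside summits, 0.08, reversed to -0.18 at a −log10 q of at least 5 and, without replicate 1, to -0.0477 in a range up to 0.30 over the replicates left out. The cause was not tested. At a −log10 q of at least 5 its sign was the same in 3 of 3 lists. The other differences between summits kept the sign of their mean, with nested minus outside log2 IP tags at 0.27 to 0.55 without single replicates. That difference had its sign in 2 of 3 lists at a −log10 q of at least 5 and at a fold of at least 4. The median length difference of 5 bp was 6 bp at a −log10 q of at least 5 and with the highest summit of each peak, 4 bp with peak overlap and with summits within 50 bp, and 8 bp among nested genes. It reversed to -1 bp among genes outside, and was 5 to 5.5 bp without single replicates. No paired analysis was possible of IP against input with the replicate number added as a block or left out, because the lists' folds already join each IP to its input, and the tests of differences were taken within lists throughout. Motif searches were not run. Depth limits members with few tags most.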

Other observations

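A peak reached into 3 further snoRNA genes without a summit in them. Y43F4B.11 (III, 13303339 to 13303413, 75 bp, in klp-19) was touched by the peaks of its neighbour Y43F4B.12 in lists 1 and 2. C07H6.10 (III, 7496577 to 7496654, 78 bp, in cgh-1) and C16D9.10 (V, 8247888 to 8247961, 74 bp, outside coding genes) were each touched by a peak of 3 IP tags in list 3. By chromosome, members with a summit in at least 1 list numbered 5 of 74 on I, 9 of 71 on II, 11 of 54 on III, 7 of 59 on IV, 7 of 55 on V and 1 of 33 on X. The share of 20.4% on chromosome III (exact 95% interval 10.6 to 33.5%) includes the 2 neighbours in rps-29. Over all chromosomes 40 of 346 members had a summit (11.6%), a share within that interval. No test was made, and shares of all annotated genes by chromosome were not computed.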
